A study of Homo sapiens with 5 samples.

Results

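Small nucleolar RNAs (snoRNAs) and small Cajal body RNAs (scaRNAs) were examined on whole-transcript arrays of D54 cells, an established human glioma cell line. They were the array rows annotated with a single gene symbol that began with SNORA, SNORD or SCARNA. This gave 198 of the 33297 rows and, after the brightest row was kept for each gene, 192 genes of the 18417 that had a row of their own. Of these, 115 were C/D box snoRNAs (SNORD), 61 were H/ACA box snoRNAs (SNORA) and 16 were scaRNAs. A further 76 rows carried such a symbol beside other symbols and were left out, and 84 snoRNA or scaRNA genes appeared only on those rows. Among the members, 46 C/D box RNAs belonged to imprinted arrays of near-identical copies: 20 were SNORD115 copies, 20 were SNORD116 copies, 2 were SNORD113 copies and 4 were SNORD114 copies.

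D54 cells with TIP-1 shRNA gave 3 arrays, called shRNA 1, shRNA 2 and shRNA 3 here, and each came from a different shRNA against TIP-1. D54 cells with control shRNA gave 2 arrays, from independent clones, called control 1 and control 2. All 5 samples were grown overnight after seeding, in the same medium, and no technical replicates were made. TIP-1 is a small PDZ domain protein encoded by TAX1BP3. The labels do not say whether each TIP-1 shRNA population was a clone, so the shRNA, the cell population and the array cannot be told apart within that group.

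The silenced gene was checked first. The TAX1BP3 row, which also carries a read-through symbol, read 9.81, 9.61 and 9.55 on the log2 signal scale in shRNAs 1, 2 and 3, against 12.05 and 12.10 in controls 1 and 2. The row fell 5.35-fold with TIP-1 shRNA, a log2 difference of -2.42 with an SE of 0.105 and a 95% interval of -2.67 to -2.16 (limma adjusted p = 0.011). It was the 1 row of 33297 that passed an adjusted p of 0.05. Leaving out either control, or shRNA 2, ended that call (adjusted p = 0.386, 0.387 and 0.129). Array medians lay between 7.88 and 7.95 with TIP-1 shRNA and between 7.96 and 7.98 with control shRNA. Of the 9 glioma or astroglial markers, VIM (13.95) and CD44 (13.78) were among the brightest rows, and EGFR read 11.19, as means over the 5 arrays. GFAP, NES and OLIG2 read 8.05, 7.91 and 7.36, and SOX2, S100B and FABP7 read 7.15, 6.27 and 6.36. The 7 measured markers of other cell types summed to 46.6 to 49.0 with TIP-1 shRNA and to 47.9 to 49.0 in the controls. None of the 7 can be called absent, because the values have no true zero. PTPRC, the leukocyte marker among them, read 8.39, 7.75 and 6.84 in shRNAs 1, 2 and 3, against 8.65 and 7.32 in controls 1 and 2, and its part in the results was not tested. In bulk RNA, fewer cells of a type and less RNA per cell cannot be told apart.

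snoRNAs are short nuclear RNAs that guide the chemical modification of other RNAs by base pairing. C/D box snoRNAs guide 2'-O-methylation by fibrillarin, and H/ACA box snoRNAs guide pseudouridylation by dyskerin. A few act in the cutting of pre-ribosomal RNA, and scaRNAs modify spliceosomal RNAs in Cajal bodies. In human cells most of them are cut out of introns of other genes, often of ribosomal protein genes or of non-coding genes. Their amount therefore need not follow that of the spliced host transcript.

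Levels spread over nearly the whole scale of the array. A level here is the mean log2 signal of the 5 arrays. It also depends on the probes of each row, so it places a row on the scale of the array and is not an amount of RNA. The 115 C/D box rows had a median of 6.87 and ran from 3.57 to 13.22. The 61 H/ACA box rows had a median of 8.04 and ran from 4.64 to 12.77, and the 16 scaRNA rows had a median of 7.63 and ran from 4.31 to 11.19. For comparison, the median was 7.94 over all rows and 8.70 over 16899 protein-coding genes.

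The low median of the C/D box class came with its imprinted copies. The 46 copies had a median of 4.70, and the other 69 C/D box rows had a median of 8.40. SNORD115 copies, which in mammals are known from neurons, had a median of 3.97, and all 20 lay below the median of all rows. SNORD116 copies, whose paternal deletion is linked to Prader-Willi syndrome, had a median of 5.43. However, SNORD116-15, SNORD116-14 and SNORD116-20 read 11.52, 10.37 and 9.81, above the upper quartile of all rows. The copies of these families resemble each other closely, so signal may be shared between their rows and 20 rows are not 20 independent measurements.

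**Figure D1:**
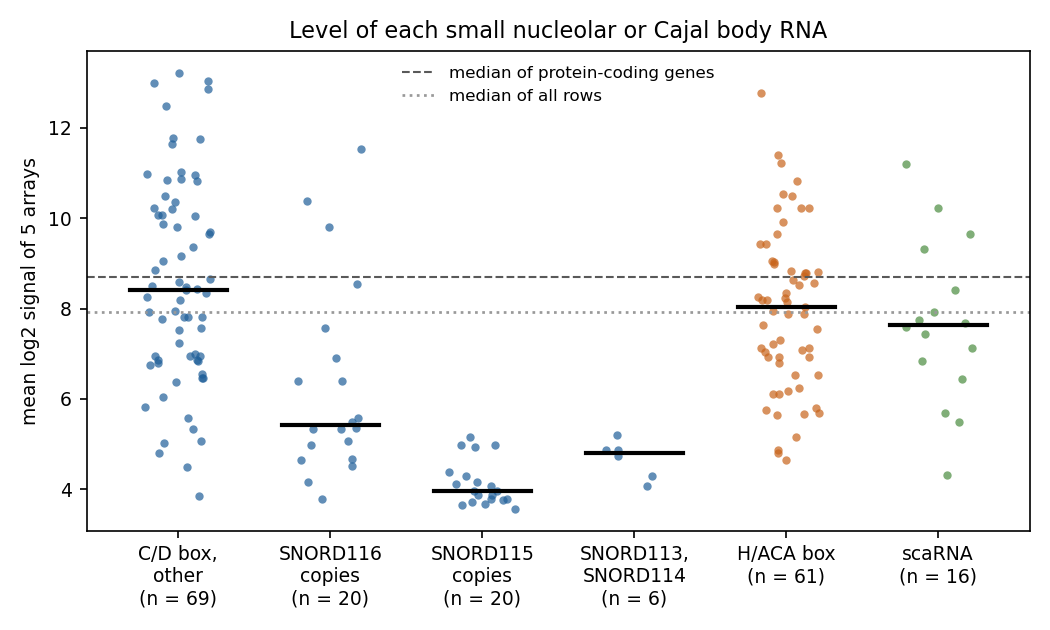
Each point is 1 small nucleolar or Cajal body RNA, placed by its mean log2 signal over the 5 arrays (vertical axis), and black bars are medians. The 69 other C/D box rows have a median of 8.40, above the 5.43 of the 20 SNORD116 copies and the 3.97 of the 20 SNORD115 copies, and 3 SNORD116 copies stand above 9.5.

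The brightest C/D box rows differed little between the groups. SNORD13, a C/D box RNA that acts in acetylation of 18S ribosomal RNA, read 13.14, 13.30 and 13.35 in shRNAs 1, 2 and 3, against 13.15 and 13.14 in controls 1 and 2 (difference 0.12, SE 0.10, adjusted p = 0.773). SNORD57, which lies within NOP56, a gene for a core protein of C/D box particles, read 13.05, 13.06 and 13.07 in shRNAs 1, 2 and 3 and 13.06 and 12.92 in controls 1 and 2. Of the other bright C/D box rows, SNORD13P3 differed by 0.09, SNORD33 of the RPL13A gene by -0.14 and SNORD41 by 0.05. SNORD13P3 is named as a copy of SNORD13, so signal may be shared between these 2 rows. In each of these 5 rows the arrays of the 2 groups overlapped. The brightest H/ACA box row, SNORA71D, read 12.76, 12.88 and 12.82 in shRNAs 1, 2 and 3, against 12.64 and 12.75 in controls 1 and 2, and the groups were 0.01 apart. Of the other bright H/ACA box rows, SNORA22, SNORA38B and SNORA23 differed more, by 0.30, 0.44 and 0.40, and are described with that class. The brightest scaRNA, SCARNA12, read 11.11, 11.18 and 11.32 in shRNAs 1, 2 and 3 and 11.18 and 11.15 in controls 1 and 2, with a difference of 0.04 (95% interval -0.19 to 0.27).

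Pooled over all levels, the 2 controls differed from each other more in C/D box rows than in protein-coding genes of like level. For this comparison, protein-coding genes were put into bins of 1 log2 unit of level and weighted by the members in each bin. The root mean square of control 1 minus control 2 was 0.325 for the 115 C/D box rows and 0.203 for protein-coding genes of like level, a ratio of 1.60. For H/ACA box rows it was 0.252 against 0.230, a ratio of 1.10, and for scaRNAs it was 0.252 against 0.226. Median absolute gaps were 0.175 against 0.107 for C/D box rows and 0.151 against 0.113 for H/ACA box rows. For scaRNAs the median absolute gap was the smaller, at 0.065 against 0.11. Without the imprinted copies the C/D box root mean square was 0.383 against 0.224. The lowest bin held only 4 protein-coding genes, and the C/D box ratio was 1.63 when rows with a level below 4 were left out. The excess was not found at every level. Within bins it was read from the SD, which leaves out a shift that the rows share. It was widest between levels of 6 and 7, with an SD of 0.45 over 17 C/D box rows and 0.203 over protein-coding genes. In 5 of 11 bins the C/D box rows had the lower SD, for example 0.183 against 0.257 between levels of 9 and 10, where there were 8 of them. In that bin their median absolute gap was the larger, at 0.165 against 0.125. Between levels of 11 and 12 it was the smaller, at 0.067 against 0.115.

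This difference had a direction. Control 1 was higher than control 2 in 137 of the 192 members (71.4%), against 47.4% of all rows and 41.9% of protein-coding genes. Among C/D box rows without imprinted copies it was higher in 57 of 69 (82.6%), and among H/ACA box rows in 42 of 61 (68.9%). SNORD115 copies were split evenly, with control 1 higher in 10 of 20. The widest gaps were in SNORD102, which lies within RPL21 and read 7.35 in control 1 and 6.22 in control 2, and in SNORD20, which lies within the nucleolin gene NCL and read 7.39 and 6.32. The TIP-1 shRNA arrays lay between those controls: SNORD102 read 6.86, 6.87 and 6.67, and SNORD20 read 7.08, 6.82 and 6.75, in shRNAs 1, 2 and 3. SNORD49A of SNHG29, with 7.74, 7.91 and 7.87 in shRNAs 1, 2 and 3, also lay between control 1 (8.12) and control 2 (7.22).

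SNORA27, SNORA24 and SNORA30 had the widest gaps of the H/ACA box class, at 0.66, 0.57 and 0.56, and SCARNA9L had the widest of the scaRNAs, at 0.78. In these 3 H/ACA box rows the TIP-1 shRNA arrays again lay between the controls. RNA quality and the labelling of each sample are not given by the values, and their part in the gap between the controls was not tested.

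**Figure D2:**
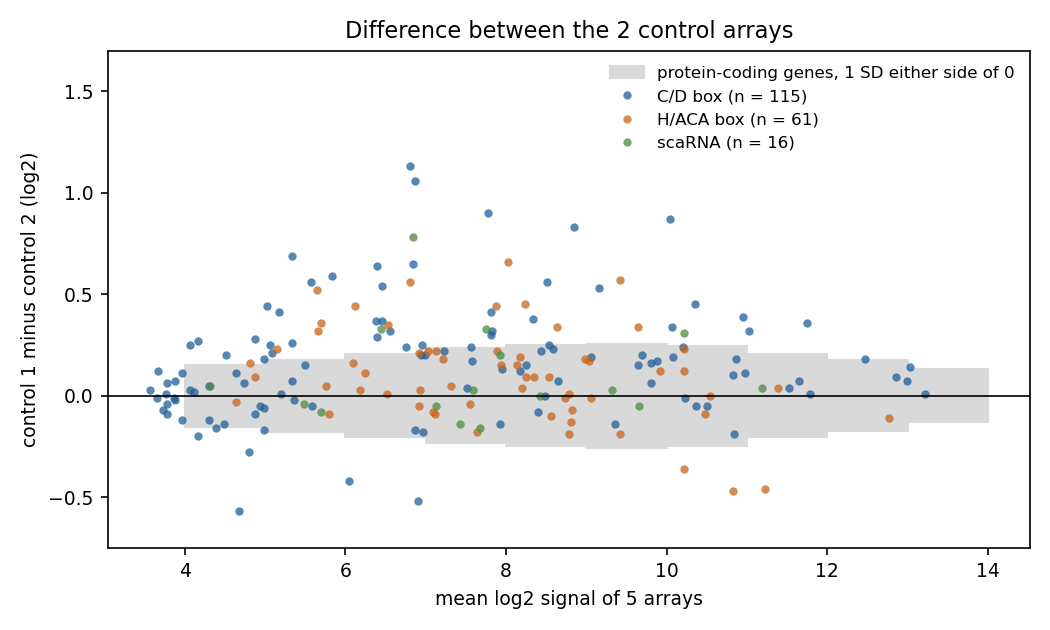
Control 1 minus control 2 in log2 units (vertical axis) against the mean log2 signal of 5 arrays (horizontal axis) for 192 members. The grey band is 1 SD either side of 0 over protein-coding genes, drawn for bins that hold at least 20 of them. More points lie above 0 than below it (137 of 192), and SNORD102 and SNORD20 stand highest, at 1.13 and 1.06.

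No member passed the test between TIP-1 shRNA and control shRNA. The limma test called 0 of 192 members at an adjusted p of 0.05, where it called 0.003% of all rows, and the smallest adjusted p of a member was 0.707. Trended robust moderation and array weights also called 0. At an unadjusted p under 0.05 there were 22 members (11.5%), where 6.95% of all rows met it. Of these, 9 were higher with TIP-1 shRNA and 13 lower, where 3.0% and 3.95% of all rows were. By class they were 9 of 115 C/D box RNAs, 12 of 61 H/ACA box RNAs (19.7%) and 1 of 16 scaRNAs. Rows from 1 family or 1 host gene are not independent, so these shares carry no test. The differences ran from -0.50 to 0.44 log2 units, and 0 members reached a 2-fold difference.

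The groups' arrays did not overlap in 51 members, and in 26.1% of all rows. In 23 members (12.0%) the 3 TIP-1 shRNA arrays all lay above both controls, where 11.6% of all rows did. In 28 members (14.6%) they all lay below both, where 14.5% of all rows did. Both shares were close to the background. Class medians were small as well: -0.023 for C/D box, -0.040 for H/ACA box and 0.046 for scaRNAs, against -0.013 over all rows. The sign of the first 2 turned when each array was centred on its own median or when control 1 was left out, and that of the scaRNAs turned without control 2 or without shRNA 3.

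Outside the imprinted arrays, C/D box RNAs within non-coding genes had lower differences, TIP-1 shRNA minus control shRNA, than those within protein-coding genes. The spanning gene was taken from the RefSeq gene table of assembly GRCh38.p14, by position and without strand. Of the 19 within non-coding genes, 18 were lower in the mean, with a median difference of -0.267, and 8 lay below both controls on all 3 arrays, where 14.5% of all rows did. With 1 array left out, 15 to 18 of the 19 were lower, and the median was -0.403 without control 2 and -0.190 without control 1. The 46 imprinted copies, which also lie within non-coding genes (SNHG14 and MEG8), had a median of 0.029. Protein-coding genes of like level had a median of 0.027, or of 0.014 with levels below 4 left out. Of the 46 copies, 29 were higher in the mean. On all 3 arrays 1 copy lay below both controls, where 8.6% of the genes of like level did. With levels below 4 left out, these shares were 0.0% of the copies and 11.7% of the genes. Of 19 within ribosomal protein genes, 14 were lower, with a median of -0.056, and 1 lay below both controls. Of 25 within other protein-coding genes, 13 were lower, with a median of -0.024, and 4 lay below both controls. None of these rows was called, the grouping was made with the values in view, and several rows share a host, so the difference between the host types has no test.

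**Figure D3:**
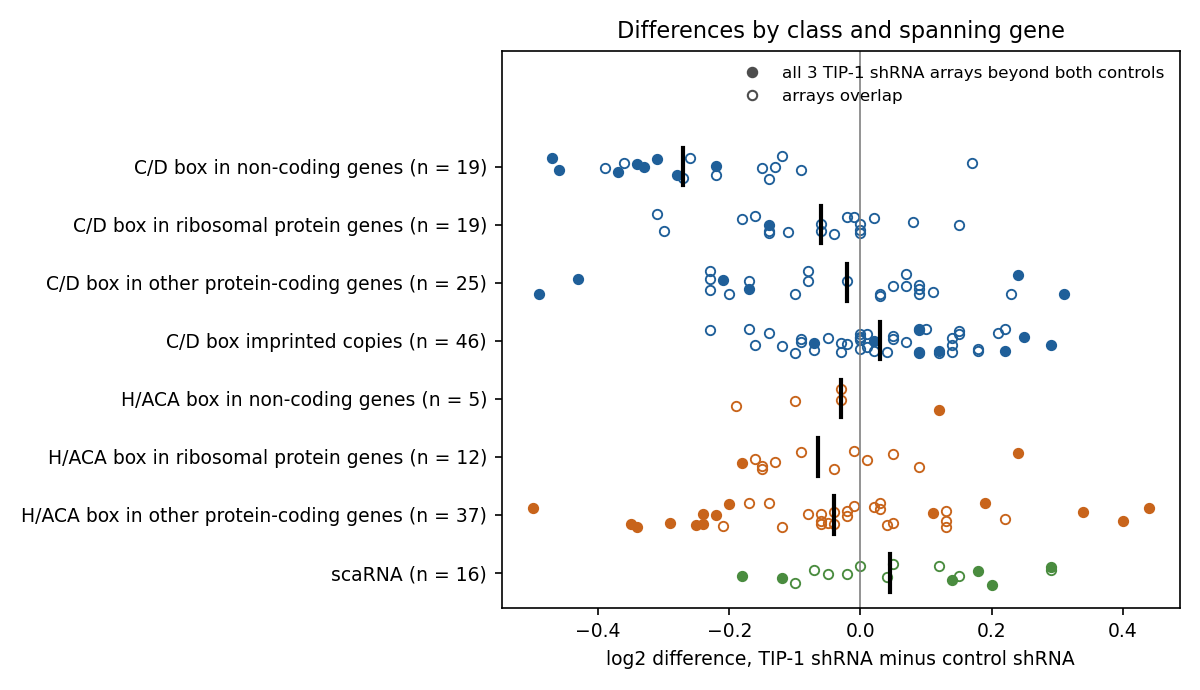
Each point is the log2 difference of 1 member, TIP-1 shRNA minus control shRNA (horizontal axis), by class and type of spanning gene. Filled points are members whose 3 TIP-1 shRNA arrays all lie beyond both controls, black bars are medians, and C/D and H/ACA box members with several spanning genes, none or a pseudogene are not drawn. The 19 C/D box RNAs in non-coding genes outside the imprinted arrays have a median of -0.267, and the other medians lie between -0.064 and 0.046.

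GAS5 holds the largest set of these. It is a non-coding gene named for its rise in growth-arrested cells, and its introns encode C/D box snoRNAs. All 7 measured members (SNORD44, SNORD74, SNORD75, SNORD77, SNORD78, SNORD79 and SNORD81) were lower in the mean, by 0.135 to 0.474 log2 units, with a median of -0.338. Set against the controls' mean, shRNA 1 had a median of -0.239, shRNA 2 of -0.249 and shRNA 3 of -0.431. Control 1 was higher than control 2 in all 7, by a median of 0.390. Therefore the size depended on the control: the median was -0.121 without control 1, with SNORD79 then higher by 0.30, and -0.560 without control 2. It was -0.202 without shRNA 3.

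SNORD75 had the largest difference of the 7. It read 9.88, 9.73 and 9.46 in shRNAs 1, 2 and 3, against 10.25 and 10.08 in controls 1 and 2 (difference -0.47, SE 0.14, 95% interval -0.82 to -0.13, adjusted p = 0.707). SNORD78 read 10.94, 10.89 and 10.82 in shRNAs 1, 2 and 3 and 11.41 and 11.09 in controls 1 and 2, a difference of -0.37 that was -0.21 without control 1. SNORD74 read 11.80, 11.67 and 11.61 in shRNAs 1, 2 and 3, against 11.92 and 11.91 in controls 1 and 2, a difference of -0.22. In these 3 rows and in SNORD81 every TIP-1 shRNA array lay below both controls, which 14.5% of all rows and 8.8% of protein-coding genes of like level did. SNORD79 showed the overlap most plainly, with 10.03, 10.11 and 9.82 in shRNAs 1, 2 and 3, against 10.56 in control 1 and 9.69 in control 2. The 3 left-out rows that carry GAS5 beside other symbols had a median difference of -0.044, and none of them lay beyond both controls on all 3 TIP-1 shRNA arrays.

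SNHG1, another non-coding host gene, gave the nearest pattern. SNORD30 read 10.85, 10.66 and 10.46 in shRNAs 1, 2 and 3, against 11.02 and 11.21 in controls 1 and 2 (difference -0.46, SE 0.14, adjusted p = 0.707). SNORD28 read 10.94, 10.77 and 10.47 in shRNAs 1, 2 and 3, against 11.14 and 10.97 in controls 1 and 2, a difference of -0.33 that was -0.20 without shRNA 3. Both rows were below the controls on every TIP-1 shRNA array, and shRNA 3 was the lowest array in both. The 6 left-out rows that carry SNHG1 beside other symbols had a median of -0.132, and none of them was separated. Elsewhere, SNORD60 of SNHG19 read 7.50, 7.51 and 7.37 in shRNAs 1, 2 and 3 and 7.82 and 7.65 in controls 1 and 2, a difference of -0.28. The single C/D box RNA of this set with a higher mean was SNORD49A (0.17, SE 0.25). The 5 H/ACA box RNAs of non-coding genes had a median of -0.028.

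**Figure D4:**
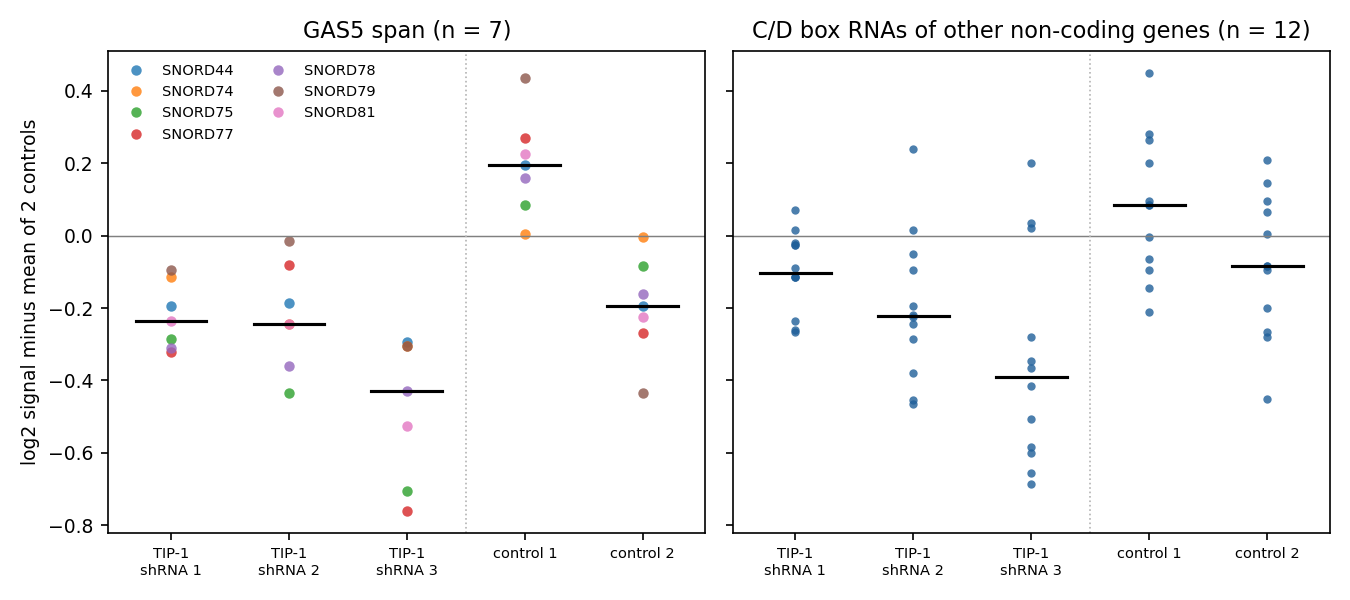
Log2 signal minus the mean of the 2 controls (vertical axis) on each of the 5 arrays, for the 7 members of the GAS5 gene (left) and the 12 other C/D box RNAs of non-coding genes (right), with black bars for medians. In the left panel all 7 points of shRNA 3 lie below 0 and the bar of control 1 stands above that of control 2, 0.390 apart at the median.

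Several snoRNA host genes, GAS5 among them, are known to start their transcripts within a run of pyrimidines, the terminal oligopyrimidine motif that ribosomal protein genes also carry. The 100 bases around the annotated start of 3 host genes, from 50 bases before it to 50 from it on, are shown because these genes hold the GAS5, SNHG1 and imprinted SNORD115 and SNORD116 members described here. They come from RefSeq on GRCh38.p14, in the direction of the gene. GAS5 lies at chr1:173868996-173869095 on the minus strand, SNHG1 at chr11:62855836-62855935 on the minus strand, and SNHG14, which spans the SNORD115 and SNORD116 copies, at chr15:24823558-24823657 on the plus strand. Capitals mark the longest run of a C followed by at least 4 further C or T in that window, on the strand of the gene only, and every run where several share that length.
GAS5: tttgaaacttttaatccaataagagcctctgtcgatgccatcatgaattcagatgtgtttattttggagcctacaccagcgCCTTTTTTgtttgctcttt
SNHG1: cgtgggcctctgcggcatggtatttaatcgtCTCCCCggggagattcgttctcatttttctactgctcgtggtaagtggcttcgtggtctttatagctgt
SNHG14: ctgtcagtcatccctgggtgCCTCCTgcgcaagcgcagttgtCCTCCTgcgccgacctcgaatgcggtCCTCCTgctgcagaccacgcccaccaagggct
The run was 8 bases long in GAS5 and began 31 bases after the first annotated base, and runs of at least that length were found in 29.4% of 35116 annotated starts. The single run in SNHG1 and the 3 runs in SNHG14 were 6 bases long, and 57.2% of the starts had a run of at least 6. Counted from the first annotated base, the SNHG1 run began at -19 and the first SNHG14 run at -30. No marked run began at the annotated start. A match in these letters is a description of the window and not a mapped start site.

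Among C/D box RNAs of protein-coding genes, the widest separation was in SNORD14E. This is a copy of U14, which guides methylation of 18S ribosomal RNA, and it lies within HSPA8, the gene of a constitutive heat shock protein. It read 8.37, 8.38 and 8.17 in shRNAs 1, 2 and 3, against 8.74 and 8.74 in controls 1 and 2 (difference -0.43, SE 0.10, 95% interval -0.67 to -0.19, unadjusted p = 0.00446, adjusted p = 0.707). The gap between the groups was 0.35 log2 units, and leaving out any 1 array gave -0.47 to -0.36. SNORD14C of the same gene differed by -0.21, and by -0.11 without shRNA 3, while the HSPA8 row itself differed by 0.01. SNORD45C of RABGGTB read 8.36, 8.23 and 7.82 in shRNAs 1, 2 and 3 and 8.82 and 8.44 in controls 1 and 2, a difference of -0.49 that was -0.31 without control 1. Its neighbours SNORD45A and SNORD45B differed by -0.08 and -0.23, the RABGGTB row by -0.14, and the median of the 3 snoRNAs was 0.053 without control 1. SNORD37 of EEF2, the gene of an elongation factor, was higher, with 6.83, 6.93 and 6.87 in shRNAs 1, 2 and 3, against 6.68 and 6.44 in controls 1 and 2 (difference 0.31, SE 0.10). That difference was 0.20 without control 2. SNORD13P1, which is named as a copy of SNORD13, was also above both controls on every TIP-1 shRNA array but had a level in the lowest 1.5% of rows.

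The arrays of the 3 shRNAs did not place the C/D box RNAs alike. In shRNA 3, 38 of 69 C/D box RNAs without imprinted copies (55.1%) lay below both controls, where 43.4% of all rows and 41.6% of protein-coding genes of like level did. In the same array 8 of the 69 (11.6%) lay above both, where 32.6% of all rows and 35.7% of the genes of like level did. In shRNA 1, 19 of 69 lay below both controls (27.5%), where 31.7% of all rows and 30.9% of genes of like level did. In shRNA 2, 28 of 69 did (40.6%), where 37.0% and 36.9% did. The 69 rows were less often above both controls in these arrays as well. In shRNA 1, 14 of 69 were (20.3%), where 30.9% of all rows and 32.9% of genes of like level were. In shRNA 2, 16 of 69 were (23.2%), where 32.3% and 31.8% were. These shares also depend on the gap between the controls. Its root mean square was 0.383 in the 69 rows and 0.224 in genes of like level. Set against the controls' mean, the 69 rows had a median of -0.026 with shRNA 1, -0.059 with shRNA 2 and -0.156 with shRNA 3. The 31 members of ribosomal protein genes, 19 C/D box and 12 H/ACA box RNAs, had medians of 0.005, -0.059 and -0.143 in shRNAs 1, 2 and 3. The 19 C/D box RNAs among them had medians of -0.001, -0.051 and -0.143.

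SNORD116 copies lay on opposite sides of the controls in shRNA 1 and shRNA 3. In shRNA 1, 16 of 20 lay below both controls and 1 above, where 31.7% and 30.9% of all rows did. In shRNA 3, 17 of 20 lay above both controls and 0 below, where 32.6% and 43.4% of all rows did. Protein-coding genes at the levels of the 46 imprinted copies gave 25.2% below and 43.4% above in shRNA 1. In shRNA 3 they gave 32.4% below and 49.3% above. With levels below 4 left out, these shares were 34.1% and 32.3% in shRNA 1, and 35.1% and 40.3% in shRNA 3. For the SNORD116 copies, medians against the controls' mean were -0.181 with shRNA 1, -0.035 with shRNA 2 and 0.176 with shRNA 3. The mean over the 3 shRNAs had a median of -0.022. The groups as a whole therefore overlapped in all copies but SNORD116-29. The bright copy SNORD116-15 read 11.27, 11.38 and 11.76 in shRNAs 1, 2 and 3, against 11.61 and 11.57 in controls 1 and 2. SNORD116-14 read 10.09, 10.16 and 10.75 in shRNAs 1, 2 and 3, against 10.41 and 10.45 in controls 1 and 2, and SNORD116-20 read 9.55, 9.68 and 10.04 in shRNAs 1, 2 and 3, against 9.93 and 9.87 in controls 1 and 2. In all 3, shRNA 3 was the highest array, and shRNAs 1 and 2 were below both controls. SNORD116-21 spread most, with 6.11, 6.47 and 7.91 in shRNAs 1, 2 and 3, against 6.74 and 7.26 in controls 1 and 2.

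SNORD116-29 was the copy with the smallest unadjusted p. It read 5.46, 5.43 and 5.55 in shRNAs 1, 2 and 3, against 5.18 and 5.20 in controls 1 and 2 (difference 0.29, SE 0.08, unadjusted p = 0.0121, adjusted p = 0.707). SNORD115 copies, spanned by the same gene, had medians of -0.003 with shRNA 1, 0.086 with shRNA 2 and 0.114 with shRNA 3. Of the 20, 13 lay above both controls in shRNA 3 and 5 below, where 32.6% and 43.4% of all rows did. Protein-coding genes at the levels of the 46 imprinted copies gave 49.3% and 32.4%, or 40.3% and 35.1% with levels below 4 left out. SNORD115-25 was the separated copy with the smallest p, at 4.96, 5.18 and 5.09 in shRNAs 1, 2 and 3, against 4.77 and 4.93 in controls 1 and 2, a difference of 0.22 that was 0.14 without control 1. All 6 copies of SNORD113 and SNORD114, which lie in the maternally expressed MEG8 region, had a difference above 0, between 0.002 and 0.251. SNORD114-6 had the largest of these, which was 0.14 without shRNA 3, and its level lay in the lowest 2.7% of rows.

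**Figure D5:**
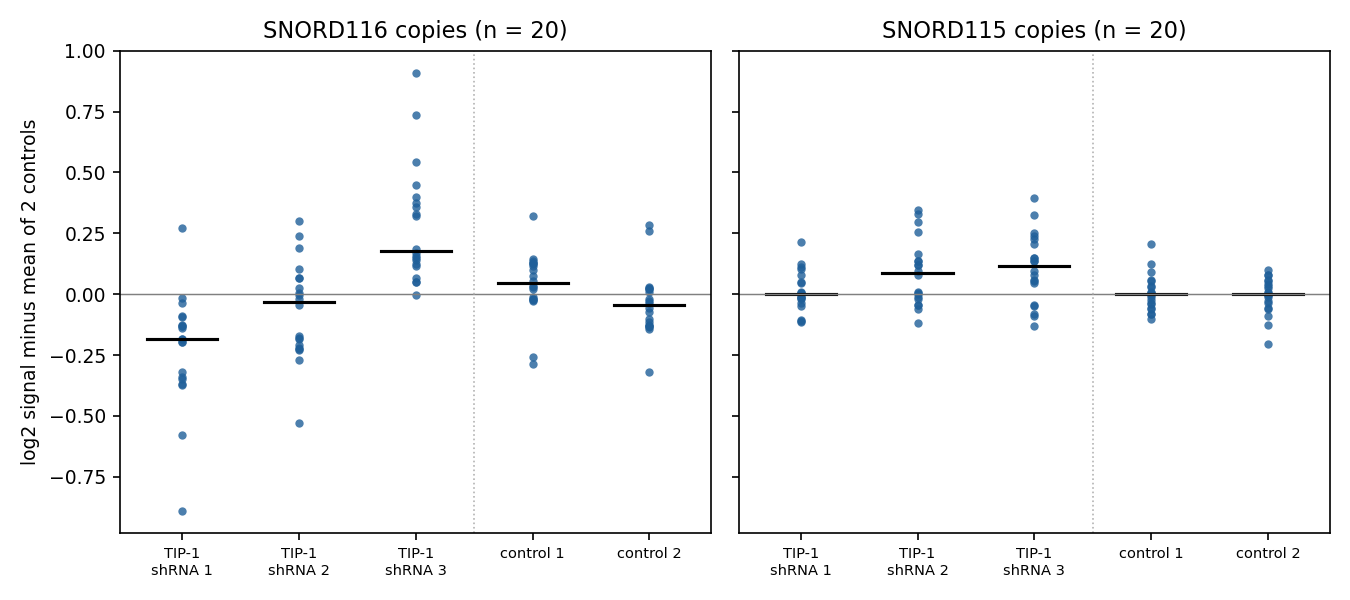
Log2 signal minus the mean of the 2 controls (vertical axis) on each of the 5 arrays for 20 SNORD116 copies (left) and 20 SNORD115 copies (right), with black bars for medians. The SNORD116 bars stand at -0.181, -0.035 and 0.176 in shRNAs 1, 2 and 3, and the SNORD115 bars at -0.003, 0.086 and 0.114.

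H/ACA box RNAs gave the largest differences in both directions. SNORA23, which lies within IPO7, an importin gene, read 10.65, 10.80 and 10.65 in shRNAs 1, 2 and 3, against 10.30 and 10.30 in controls 1 and 2 (difference 0.40, SE 0.09, 95% interval 0.18 to 0.61, adjusted p = 0.707). Its unadjusted p of 0.00397 was the smallest of all members. The groups were 0.35 log2 units apart, and without any 1 array the difference was 0.35 to 0.42. The IPO7 row differed by -0.17. SNORA38B of NOL11, the gene of a processome protein, read 10.98, 11.16 and 10.85 in shRNAs 1, 2 and 3 and 10.32 and 10.78 in controls 1 and 2, a difference of 0.44 that was 0.21 without control 1. SNORA22 read 11.40, 11.67 and 11.46 in shRNAs 1, 2 and 3, against 11.23 and 11.19 in controls 1 and 2, a difference of 0.30. SNORA21 of RPL23 differed by 0.24 (SE 0.10).

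SNORA80B, which lies within ODC1, the gene of the polyamine enzyme ornithine decarboxylase, was the member with the largest difference. It read 8.82, 8.62 and 8.34 in shRNAs 1, 2 and 3, against 8.99 and 9.19 in controls 1 and 2 (difference -0.50, SE 0.15, 95% interval -0.87 to -0.12, adjusted p = 0.707), while the ODC1 row differed by -0.06. SNORA74A read 8.30, 8.15 and 8.26 in shRNAs 1, 2 and 3 and 8.56 and 8.47 in controls 1 and 2, a difference of -0.28. SNORA36C of AAK1 differed by -0.34, and by -0.16 without control 1. SNORA71C, with 11.14, 11.13 and 11.15 in shRNAs 1, 2 and 3 and 11.11 and 11.56 in controls 1 and 2, overlapped the controls.

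Related H/ACA box rows could differ in direction. SNORA5A of TBRG4 read 8.71, 8.77 and 8.85 in shRNAs 1, 2 and 3, against 8.60 and 8.26 in controls 1 and 2, a difference of 0.34 (SE 0.12) that was 0.17 without control 2. SNORA5B of the same gene differed by -0.24, with the groups also apart, and by -0.15 without control 1, and the TBRG4 row differed by 0.13. Of 6 SNORA70 copies, 4 lay below both controls on all 3 TIP-1 shRNA arrays, where 14.5% of all rows did: SNORA70B differed by -0.20, SNORA70D by -0.35, SNORA70E by -0.22 and SNORA70G by -0.24. SNORA70C differed by 0.13 and SNORA70F by -0.06. Unlike the GAS5 members, all 6 were lower in control 1 than in control 2, by a median of 0.067. These copies lie in different genes but resemble each other, so signal may be shared between their rows.

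Differences of the scaRNAs spread least, with an SD of 0.145 over the 16, against 0.176 for C/D box and 0.183 for H/ACA box RNAs. Of 16, 4 lay above both controls on all 3 TIP-1 shRNA arrays, where 11.6% of all rows did, and 2 below, where 14.5% did. SCARNA17 was the member of this class with an unadjusted p under 0.05, at 9.70, 9.75 and 9.73 in shRNAs 1, 2 and 3, against 9.51 and 9.56 in controls 1 and 2 (difference 0.20, SE 0.08, adjusted p = 0.707). Its difference was 0.135 when all rows of the gene were averaged. SCARNA1 read 5.59, 5.88 and 5.98 in shRNAs 1, 2 and 3, against 5.48 and 5.56 in controls 1 and 2, a difference of 0.29. SCARNA10 differed by 0.14, and by 0.07 without control 1. SCARNA9 differed by 0.18, but by 0.06 without shRNA 3 and by 0.0168 when all rows of the gene were averaged. SCARNA22 of NSD2, a histone methyltransferase gene, read 8.49, 8.50 and 8.05 in shRNAs 1, 2 and 3 and 8.52 and 8.52 in controls 1 and 2, so its difference of -0.18 became -0.03 without shRNA 3. SCARNA23 differed by -0.12. SCARNA7, SCARNA16, SCARNA8, SCARNA4 and SCARNA9L overlapped the controls, and SCARNA9L, with a difference of 0.29 (SE 0.22), was -0.10 without control 2 and 0.0699 with its rows averaged.

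The spanning genes that had a row of their own had median differences near 0, and none was called. The median difference was 0.002 over 10 ribosomal protein genes and -0.048 over their 16 members. It was -0.030 over 55 other protein-coding genes and -0.024 over their 69 members. For 3 non-coding genes it was -0.052, and for their 5 members -0.099. GAS5, SNHG1 and SNHG14 had no single-symbol row, so their own transcripts were not compared. Single host genes spread further than the medians, from -0.985 to 0.259 among the other protein-coding genes. COBLL1, which spans SNORA70F, differed by -0.99 (SE 0.41, adjusted p = 0.707), while SNORA70F differed by -0.06. NSD2, which spans SCARNA22, differed by -0.33 (SE 0.32), and RAB30, which spans SNORA70E, by 0.26 (SE 0.13).

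Proteins that make, mature or use these RNAs were examined as lists, and none of their genes was called. Of the 4 core proteins of C/D box particles, FBL, the methyltransferase fibrillarin, and NOP58 were measured and differed by -0.01 and -0.05. Of the 4 H/ACA box core proteins, NHP2 read 10.67, 10.77 and 10.75 in shRNAs 1, 2 and 3, against 10.52 and 10.40 in controls 1 and 2 (difference 0.27, SE 0.09, adjusted p = 0.707). NOP10 differed by 0.18, and the pseudouridine synthase gene DKC1 and GAR1 by -0.08 and -0.03. Among 13 assembly factors the median was 0.045 and NUFIP1 had the smallest p (0.30, SE 0.10). Among 8 Cajal body genes the median was 0.064, with GEMIN2 of the SMN complex at -0.23 and USPL1 at 0.31. Among 18 genes of end trimming and decay, mainly exosome subunits, the median was 0.045, 5 lay above both controls on all 3 TIP-1 shRNA arrays (11.6% of all rows) and 0 below (14.5% of all rows), and EXOSC8 differed by 0.30 (SE 0.14). Among 23 genes of the U3 particle and the small-subunit processome the median was 0.014, with UTP18 at 0.15. Over 5 measured snoRNA host genes it was -0.052, against -0.013 over all rows. Among them EPB41L4A-AS1 differed by 0.09, ZFAS1 by 0.05, SNHG29 by -0.05 and SNHG17 by -0.13. The fifth, TAF1D, at -0.13, is a protein-coding gene.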

How the data were processed

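Total RNA of 5 D54 samples was measured on Affymetrix whole-transcript arrays. The log2 signals deposited by the authors were used as they are. Per the series' design text they came from the Affymetrix Exon Array Computational Tool, with version and settings not given in the sources used here. Exon arrays are what the labels name. Row identifiers are those of the gene-level array, and its annotation supplied the symbols. The difference of TIP-1 shRNA minus control shRNA was tested two-sided over all 33297 rows by the lmFit and eBayes functions of limma 3.58.1 (R 4.3.3), with Benjamini-Hochberg adjustment and a threshold of 0.05. With 3 arrays against 2, an exact permutation test cannot go below a p of 0.1. The small number of arrays limits the precision, and p-values reflect the spread among clones and among shRNAs. The test was checked on simulated data.

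Members and lists were chosen with earlier results of these data known. Named members were the 5 brightest per class, up to 5 per direction with the smallest p among those whose groups did not overlap, the 3 with the widest gap between controls, SNORD13, and genes lying beside them. Members of a shared host gene, of SNORD115, SNORD116, SNORD45 and SNORA70 were described as groups. GAS5, SNHG1, the SNORA70 and SNORD45 copies and the split by host type were picked out after their values were seen. All 192 members matched the gene table, and 0 matched a promoter sequence. The labels do not say whether replicate numbers mark shared cultures. Same-numbered samples of the 2 groups had deviations that correlated at 0.049 and -0.053, so the numbers were not used as pairs.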

Additional observations from a re-analysis of the deposited data

How the results depend on the processing

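No member was called under any alternative that was run: quantile normalization, centring each array on its median, rows at or above the median level only, the mean of all single-symbol rows of a gene, leaving out each array, the replicate block, trended robust moderation or array weights. TAX1BP3 stayed between -2.50 and -2.37 when 1 array was left out, with adjusted p between 0.0273 and 0.387. The median difference of the C/D box class was -0.0348 after quantile normalization, 0.0385 after centring, -0.141 in bright rows only and -0.0363 with the replicate block, and -0.078 to 0.0423 without 1 array. For H/ACA box RNAs it was -0.081 to 0.0381 without 1 array. For scaRNAs it was 0.108 after centring, -0.00699 with the replicate block and -0.0401 to 0.0707 without 1 array. The GAS5 median, an alternative chosen after seeing the data, was -0.202 with the replicate block and -0.560 to -0.121 without 1 array. Bright rows alone held 26 members whose groups did not overlap, and the SD between the controls in C/D box rows was then 0.22. Without 1 array, 60 to 110 members did not overlap, since fewer arrays have to be apart.

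Of 520 values for 45 named members, 28 changed sign, none of them called. SNORA30 was 0.0386 after quantile normalization and 0.0394 after centring. SNORA24 was 0.0342 after centring and 0.0177 with array weights, SCARNA16 was 0.00871 after centring, SCARNA7 was -0.0605 with the replicate block and -0.0139 with array weights, and SCARNA12 was -0.0185 with the block. Without 1 array, SNORD41 ran from -0.0382 to 0.151, SNORD102 from -0.546 to 0.579, SNORD20 from -0.503 to 0.561, SNORD49A from -0.281 to 0.621 and SNORA71C from -0.418 to 0.0372. In the same way SNORA27 ran from -0.421 to 0.241, SNORA24 from -0.313 to 0.259, SNORA30 from -0.303 to 0.26, SCARNA12 from -0.0185 to 0.0829 and SCARNA7 from -0.0605 to 0.273. SCARNA9L ran from -0.0955 to 0.682, SCARNA4 from -0.109 to 0.219 and SCARNA8 from -0.261 to 0.0654. The cause was not tested.

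The count of SNORD116 copies above both controls in shRNA 3 was 16 after quantile normalization and 19 after centring, and of those below both in shRNA 1 it was 14 and 12. The replicate block changed no call. The SD between controls needs both controls and has no value with 1 left out or with the block, and the count of members that do not overlap has none with the block. With 1 control left, its spread is taken to equal that of the other group. The values have no background signal or detection call, so how far dim rows lie above background is not known.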

Other observations

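Other short RNAs had rows on the same arrays. Of 20 rows annotated as small nuclear RNA, the type that includes the spliceosomal RNAs, 16 were higher with TIP-1 shRNA. Their median difference was 0.143, and 6 lay above both controls on all 3 TIP-1 shRNA arrays, where 11.6% of all rows did. By array their medians against the mean of the controls were 0.132 in shRNA 1, 0.201 in shRNA 2 and -0.005 in shRNA 3. Control 1 was higher than control 2 in 11 of 20, against 137 of the 192 snoRNAs and scaRNAs. Of 164 microRNA rows, 106 were lower, with a median of -0.054, and control 1 was the higher control in 40.2%.

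The 76 rows that carry a snoRNA or scaRNA symbol beside other symbols, and so were no members, had a median difference of -0.019. In them control 1 was higher than control 2 in 52 rows (68.4%), close to the 71.4% of the members. Of the 76, 9 lay above both controls on all 3 TIP-1 shRNA arrays, where 11.6% of all rows did, and 5 below, where 14.5% did.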
